A study of Homo sapiens with 4 samples.

Results

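NRSF/REST is a zinc finger repressor that keeps neuronal genes silent in non-neuronal cells by bringing corepressors to a DNA element of fixed sequence. That element, called RE1 or NRSE, pairs a left and a right part separated by a short gap, and single copies can lie far from any gene. The sites described here are those listed for NRSF/REST at both dosages of SF-1, in stretches of the genome without coding genes. SF-1 is a nuclear receptor that controls adrenal development and steroid production.

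Chromatin of H295R/TR SF-1 cells was immunoprecipitated with an antibody against NRSF/REST and sequenced. These cells are a subclone of H295R, a human adrenocortical carcinoma line, in which doxycycline switches on additional SF-1. There was 1 library from untreated cells, called basal, and 1 library from cells kept in doxycycline for 3 days, called increased. A line that is 1 subclone, with 1 library per dosage, gives no replicate check, so every value below describes these libraries and no test between dosages was made. The deposited lists hold 5323 basal sites and 5059 increased sites, give the same score of 1000 to every site, and carry no read counts, so the depth is unknown and site width was used in place of a strength.

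The members were chosen by the positions of the sites in both lists and by the annotation. A basal site had to overlap an increased site by at least 1 bp, its midpoint had to lie outside all protein-coding and lncRNA genes, and the nearest protein-coding gene boundary had to be more than 100 kb away. Of the 5323 basal sites 3431 were shared in this way (64.5%), and 514 of these were far from genes. Counted from the increased list the number was 519. Another 2917 shared sites did not meet the distance or gene condition, of which 765 lay outside genes within 100 kb, and these serve for comparison below. The range after a share is its 95% Wilson interval, which covers only the error of counting sites.

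The values used by the rule are a description only. The member nearest to the limit lay between SCAND3 and TRIM27, at 100.154 kb from a gene boundary, and the next were at 100.324 kb (SLC5A7 and SULT1C3) and 100.463 kb (RP1 and XKR4). The nearest shared sites on the other side of the limit were at 99.997 kb (ADRA2C and OTOP1), 99.779 kb (TMEM174 and FOXD1) and 99.414 kb (LSAMP and IGSF11). The smallest overlap was 99 bp, the median was 349 bp, and 492 members overlapped over at least 50% of both sites. The closest far basal site that missed an increased site did so by 52 bp.

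The NRSF/REST consensus was searched as CTGTCC, any 2 bases and GGTGCTG on either strand, with at most 2 mismatches over the 13 fixed bases. The widest members with a perfect match are printed to show its sequence. They were chosen for that match, which 49 of the 514 members had, and do not stand for the other members. In each line below, 21 bases of hg19 run 5′ to 3′ in the direction of the consensus, the 15 bases of the match are in capitals, and the genes are the nearest protein-coding genes to the left and right.
TMEM121 and the end of the chromosome, chr14:106267714-106267734, minus strand: gctgCTGTCCATGGTGCTGcc
GLRX3 and TCERG1L, chr10:132722568-132722588, minus strand: actgCTGTCCATGGTGCTGac
SUDS3 and SRRM4, chr12:119071071-119071091, plus strand: agagCTGTCCCTGGTGCTGaa
SLC8A1 and PKDCC, chr2:42018852-42018872, minus strand: gatgCTGTCCATGGTGCTGca
CADM1 and BUD13, chr11:116250333-116250353, plus strand: tctgCTGTCCATGGTGCTGac
PTPRU and ENSG00000289710, chr1:30209627-30209647, plus strand: ggctCTGTCCATGGTGCTGaa
VRK1 and BCL11B, chr14:99046794-99046814, minus strand: gataCTGTCCATGGTGCTGaa
DYSF and CYP26B1, chr2:72083997-72084017, plus strand: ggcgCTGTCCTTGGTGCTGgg
ID4 and MBOAT1, chr6:19988991-19989011, minus strand: actaCTGTCCGAGGTGCTGaa
The other of the 10 widest perfect matches lay between C8orf90 and TSNARE1 in a site of 899 bp. TMEM121 is the last gene of its chromosome typed as protein-coding, since immunoglobulin segments are typed apart and were not counted.

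Most perfect copies of the consensus far from genes were in a site at both dosages. The chromosomes of hg19 hold 816 copies of the consensus without a mismatch, of which 608 lay in a basal site (74.5%). Of these copies 71 met the gene and distance conditions, and 51 of the 71 lay in a basal site, which is 71.8% (60.5 to 81.0%). The same 51 copies lay in an increased site as well. Of the 745 copies elsewhere 557 lay in a basal site, or 74.8% (71.5 to 77.8%), and 559 in an increased site. The interval of the far copies therefore contains the share of the others, and 20 perfect copies far from genes were in no site of either list.

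The bases just after the consensus, which the search did not use, differed between copies in and out of sites. Of the 51 far copies in a site 23 were followed by AA, or 45.1% (32.3 to 58.6%), against 1 of the 20 far copies in no site, or 5% (0.888 to 23.6%). Elsewhere in the genome the same feature was present in 39.4% of 566 copies in a site of either list and in 2.23% of 179 copies in no site. Of the members shown above, the sites in the intervals bounded by SRRM4, PTPRU, BCL11B and ID4 carry it. PTPRU and BCL11B were the nearest genes to their sites, at 557 and 589 kb. SUDS3 (215 kb) was nearer than SRRM4, and MBOAT1 (111 kb) was nearer than ID4. SRRM4 encodes a neuronal splicing regulator, PTPRU a receptor tyrosine phosphatase, BCL11B a zinc finger transcription factor and ID4 an inhibitor of helix-loop-helix factors.

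With up to 2 mismatches, 220 of the 514 members held the consensus, which is 42.8% (38.6 to 47.1%), against 58.9% of all 3431 shared sites. Of the other shared sites 1801 of 2917 held it, or 61.7% (60.0 to 63.5%), and of the 765 shared sites outside genes but nearer to them 471, or 61.6% (58.1 to 64.9%). The interval of the members lies below both. Equally wide windows 10 kb on each side of the members held the consensus in 16 of 999 cases, or 1.60% (0.988 to 2.59%). A perfect match was present in 49 members, or 9.53% (7.29 to 12.4%), and in 17.1% of all shared sites. A further 98 members had 1 mismatch and 73 had 2.

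The lower share went with members beside large unsequenced gaps. The build hg19 represents centromeres and some heterochromatin by long runs of N, and 28 runs of at least 1 Mb were found. Of the members 151 lay within 2 Mb of such a run, which is 29.4% (25.6 to 33.5%), against 6.06% of all shared sites and 57 of the 2917 others, or 1.95% (1.51 to 2.52%). In these 151 members the consensus was found in 4, or 2.65% (1.03 to 6.61%), and never without a mismatch. The 57 other shared sites near such a gap held it in 25 cases, or 43.9% (31.8 to 56.7%), 8 of them without a mismatch. These groups were not equally near: the median distance to a gap was 0.075 Mb for the 151 members and 0.722 Mb for the 57 others. Within 1 Mb of a gap the consensus was found in 2.99% of 134 members and 34.3% of 35 others. Among the remaining 363 members it was found in 216, or 59.5% (54.4 to 64.4%), and in 1776 of the 2860 other shared sites away from such gaps, or 62.1% (60.3 to 63.9%). The limit of 2 Mb was chosen after the data had been seen. With limits of 1 and 5 Mb the share in the members away from gaps was 56.8% and 60.1%.

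Over all shared sites outside genes the share with the consensus was lower at greater distance. It was 64.9% of 296 sites within 10 kb, 59.3% of 327 from 10 to 50 kb, and 59.9% of 142 from 50 to 100 kb. Among the members it was 54.1% of 157 sites from 100 to 200 kb, 45.1% of 195 from 200 to 500 kb, and 29.0% of 162 beyond 500 kb (22.6 to 36.4%). Without the sites within 2 Mb of a large gap, the last 3 values were 58.7% of 143 sites, 61.7% of 141 and 57.0% of 79 (46.0 to 67.3%). Their intervals then overlap those of the sites nearer to genes.

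**Figure D1:**
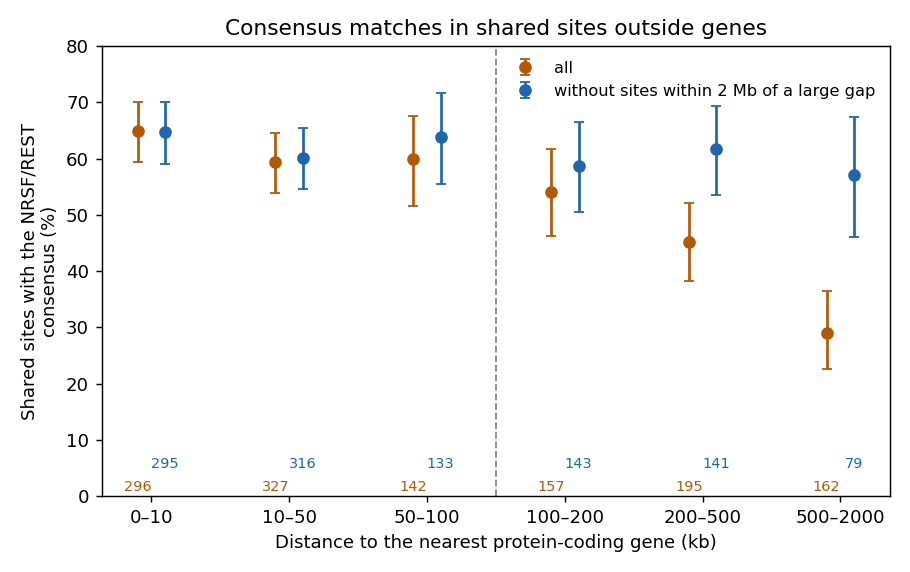
Percentage of shared NRSF/REST sites outside genes that hold the consensus (vertical axis) by distance to the nearest protein-coding gene in kb (horizontal axis), with 95% Wilson intervals and the number of sites below each point. To the right of the dashed line are the members: over all sites the share reached 29.0% beyond 500 kb, and without sites within 2 Mb of a large gap it was 57.0% there.

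The most distant members show both kinds. The farthest lay on chromosome 21 between NCAM2, which encodes a neural cell adhesion molecule, and MRPL39, 1980 kb from NCAM2 (chr21:24895001-24895499, 499 bp). It held the consensus with 2 mismatches, G3C and G12A, where position 1 is the C that opens the left part.
NCAM2 and MRPL39, chr21:24895258-24895278, minus strand: gctgCTCTCCAGGGTACTGaa
Next was a site of 299 bp between SEL1L and FLRT2, a gene for a leucine-rich adhesion protein, 1955 kb from the nearest gene and also with 2 mismatches. The other 3 of the 5 farthest were sites between ZNF254 and UQCRFS1 (199 and 299 bp) and between ZNF716 and ZNF722 (99 bp), at 0.0471, 0.0629 and 0.488 Mb from a large gap, and their best match had at least 4 mismatches. In all 162 members lay more than 500 kb from a protein-coding gene and 43 more than 1000 kb.

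Sequence of the members beside large gaps was often repeated elsewhere in the genome. All words of 32 bases in each site were counted in hg19 on both strands. A site was called mostly repeated when over 50% of its words occurred more than once. Copies in sequence that hg19 gives as N could not be counted. Of the members 78 were mostly repeated, or 15.2% (12.3 to 18.5%), against 4.31% of all shared sites and 2.40% of the others. Of the 78 members 70 lay within 2 Mb of a large gap. The windows beside these 151 members were mostly repeated in 113 of 274 cases, 41.2%, against 46.4% of the sites themselves, so the property belongs to the surroundings too. Away from the gaps 8 of 363 members were mostly repeated, or 2.2%, against 2.03% of the other shared sites away from gaps. There 257 members had no repeated word at all, or 70.8% (65.9 to 75.2%). The same held for 69.9% of all shared sites and 74.2% of the others away from gaps. How reads from repeated words were placed in these libraries is not given in the sources used here, and its part in these sites was not tested.

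**Figure D2:**
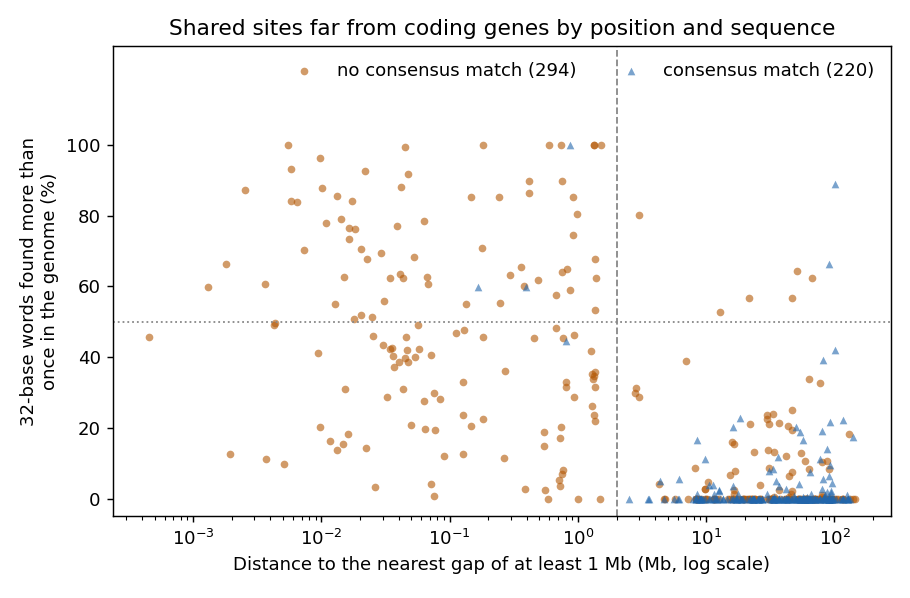
Each point is 1 of the 514 members, placed by its distance to the nearest gap of at least 1 Mb (horizontal axis, Mb, log scale) and by the percentage of its 32-base words that occur more than once in hg19 (vertical axis). Triangles hold the NRSF/REST consensus and circles do not: left of the dashed line at 2 Mb 4 of 151 members hold it, right of it 216 of 363.

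Another feature of these members was the pentamer GGAAT, the unit of a human satellite found around centromeres. In 51 members over 20% of the bases lay in GGAAT or its complement ATTCC, which is 9.92% (7.63 to 12.8%), against 1.66% of all shared sites and 6 of the 2917 others. All 51 lay within 2 Mb of a large gap. Windows 10 kb away from the members near gaps passed the same minimum in 74 of 274 cases, 27.0%, against 33.8% of the sites. The widest such member is a site of 799 bp on chromosome 16 (chr16:46432451-46433249) in the interval before SHCBP1. The 120 bases of it that hold the most copies are shown to make the repeat visible, with each copy of the pentamer in capitals.
GGAAT-rich site, chr16:46432573-46432692, plus strand: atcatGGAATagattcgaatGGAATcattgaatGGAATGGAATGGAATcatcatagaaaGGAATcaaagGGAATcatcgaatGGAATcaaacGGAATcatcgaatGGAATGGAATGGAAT

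In the 3 intervals between protein-coding genes with the most members, every member lay within 2 Mb of a large gap. The interval from LINC00999, which the annotation types as coding, to ZNF33B on chromosome 10 held 28 members between 38886851 and 42600399. None of the 28 had the consensus, and 9 were mostly repeated. Their widths ran from 199 to 999 bp, and a site on the long-arm side (chr10:42399901-42400899) measured 999 bp at both dosages. On chromosome 16 the interval from ENSG00000284209 to SHCBP1 held 16 members, 14 of them mostly repeated and none with the consensus. On chromosome Y the interval from TSPY10 to USP9Y held 14 members, 2 with the consensus and 2 mostly repeated. How reads came to be placed on chromosome Y was not tested. Members of 1 interval are neighbours and do not count as separate observations. Chromosome 10 thus led the list with 50 members, 29 of them near a large gap, followed by chromosome 2 with 44 and chromosomes 1 and 16 with 36 each.

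Most intervals between protein-coding genes held a single member, 184 of the 277 with any. Away from gaps, 28 of 247 intervals held 3 or more members. Of the 102 members in these 28 intervals 72 held the consensus, or 70.6% (61.1 to 78.6%), and in 3 of the 28 none did. All members away from gaps, which include these 102, held it in 59.5% (54.4 to 64.4%). Neighbours are not separate observations, and the difference was not tested. The following intervals were chosen after their values were seen. Between PTPRU and ENSG00000289710 on chromosome 1, an interval of 1396 kb, 8 members lay within 1023 kb, and all 8 held the consensus. Their basal widths ran from 99 to 899 bp and their increased widths from 199 to 1099 bp. A pair of these 8, 1011 kb apart, carries the same 21 bases, and 66.2% of the words of the narrower member were repeated.
PTPRU and ENSG00000289710, chr1:29805138-29805158, minus strand, and chr1:30815575-30815595, plus strand: gccgCTCTCCAGGGTCCTGgg
Between BRINP1, a gene expressed in the nervous system, and CDK5RAP2 on chromosome 9, all 5 members held the consensus, with basal widths of 999, 849, 699, 499 and 299 bp and increased widths of 949, 749, 749, 649 and 349 bp. Between CRYBA4 and MN1 on chromosome 22, 4 of 5 did. Between CDH2, which encodes N-cadherin, and DSC3 on chromosome 18, 1 of 5 did.

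The match lay close to the middle of its site. The centre of the match was at a median of 29.5 bp from the midpoint of the basal site and of 31.0 bp from that of the overlapping increased site. Of the 220 matches 149 were within 50 bp of the basal midpoint and 198 within 100 bp. The farthest was the site beyond TMEM121, where it lay 398 bp from the midpoint of a basal site of 1349 bp. Its increased partner was 849 bp wide. Every match lay inside the increased partner too. The strands were balanced, with 109 matches on the plus strand and 111 on the minus strand.

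**Figure D3:**
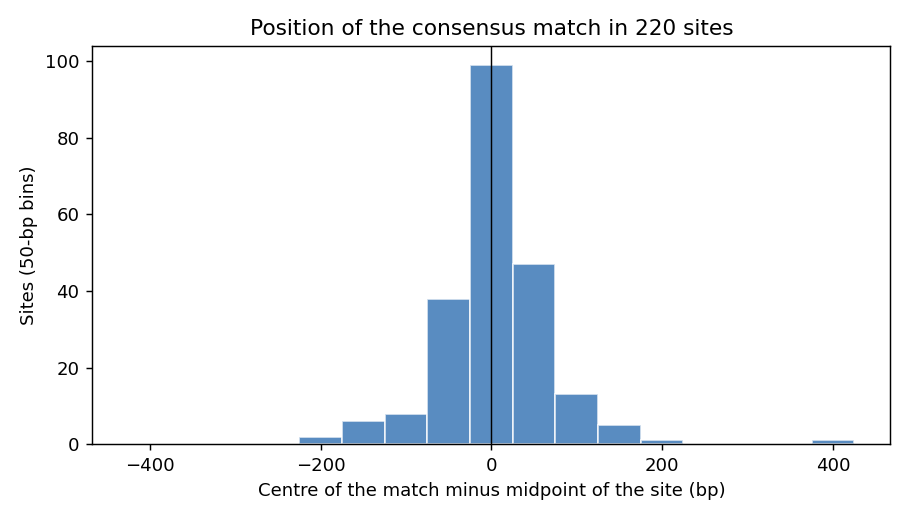
Number of members (vertical axis, 50-bp bins) by the distance from the midpoint of the basal site to the centre of its consensus match, in bp (horizontal axis), for the 220 members with a match. The central bin is the highest, and 198 of the 220 matches are within 100 bp of the midpoint.

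The positions that differed from the consensus most often were 12, 3 and 15. Position 12, a G in the right part, differed from the consensus in 90 of 220 members, or 40.9% (34.6 to 47.5%), and in 33.6% (31.5 to 35.9%) of the 1801 other shared sites with a match. The commonest change there was G12C, in 44 members. Position 3 differed in 48 members (21.8%), of which 33 had G3C, and position 15 in 37 members (16.8%, 12.5 to 22.3%) against 9.88% (8.59 to 11.3%) of the others. No member differed at positions 10 and 11, where 0.611% and 1.11% of the others did, within the members' intervals of up to 1.72%. The free bases between the parts were AT in 82 of the 220 members, which is 37.3% (31.2 to 43.8%), and in 24.3% (22.4 to 26.4%) of the other shared sites. These intervals do not overlap. The members were also poorer in G and C, with a median of 40.8% of bases against 47.9% in the others, and the part of base composition in the difference was not tested. Before the consensus, G was the commonest base at the first of the 4 printed positions (63.2% of members, 68.0% of the others), and after it A was (70.5% and 69.4%).

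Width followed the quality of the match at both dosages. The 49 members without a mismatch ran from 249 to 1349 bp in the basal list, with a median of 649 bp, and their increased partners also had a median of 649 bp. With 1 mismatch the medians were 499 and 499 bp, and with 2 mismatches 399 and 399 bp. The 69 members away from gaps with neither the consensus nor its parts at another distance had medians of 299 and 299 bp, and the 147 near a gap without the consensus 249 and 249 bp. The ranges of these classes overlap widely. The order number of the lists, given here as a percentile where lower is earlier, ran alike: 16.7 and 19.3 for members without a mismatch, 28.0 and 28.6 with 1, 38.8 and 40.7 with 2.

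**Figure D4:**
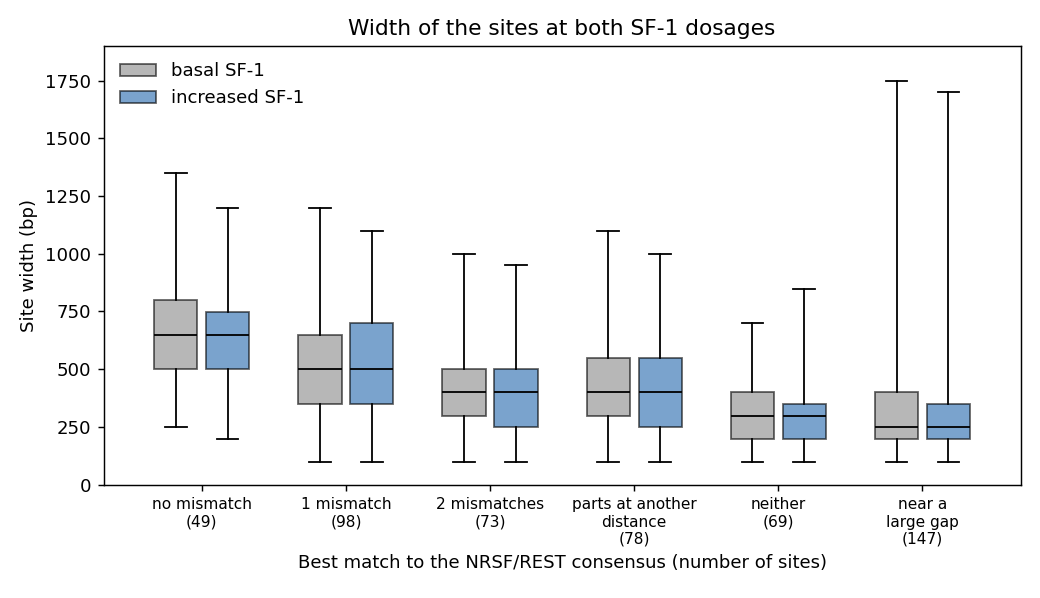
Width of the members in bp (vertical axis) by class of match (horizontal axis, number of members in brackets), with the basal site in grey and its increased partner in blue. Boxes span the quartiles with the median as a line, and whiskers reach the lowest and highest site. Median basal widths are 649, 499 and 399 bp for 0, 1 and 2 mismatches, and the widest site, 1749 bp, is in the class near a large gap.

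The 10 widest members include both classes. The widest, 1749 bp at the basal and 1699 bp at the increased dosage, lay on the short arm of chromosome 21 before TPTE (chr21:9825251-9826999). Its sequence was 73.8% G and C, 86.4% of its words were repeated, and its best match had 3 mismatches. The others lay away from gaps, and 7 of these 9 held the consensus. The count ends within 3 members of 999 bp, ordered by list number, and the one left out is the site on chromosome 10 near a gap given above, without the consensus. Besides the sites printed above, they include one between BNIP2 and FOXB1, a forkhead transcription factor gene (1049 bp, 1 mismatch), and one between NPIPB5 and HS3ST2 (1199 bp, 1 mismatch). A site between ACTR3B (207 kb away) and DPP6 (686 kb away), which encodes an accessory subunit of A-type potassium channels, measured 1049 bp and had 3 mismatches. So did a site of 1099 bp between NEDD1 and TMPO.

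Width differed little between the lists in most members. As the rule required a site in both lists, sites called at only 1 dosage do not enter these values. The width was equal in 171 of the 514, narrower at the increased dosage in 194 and wider in 149. In 448 members, 87.2%, the widths differed by at most 100 bp, and the median difference was 0 bp with quartiles of -50 and 50 bp, which is the step of the boundaries. Among the other shared sites 79.2% differed by at most 100 bp, 37.9% were narrower and 36.5% wider. Near large gaps 85 of the 151 members had the same width in both lists.

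Of all 916 far basal sites, the 514 members are 56.1% (52.9 to 59.3%), and of the 4407 other basal sites 66.2% (64.8 to 67.6%) were shared. With the consensus, 220 of 238 far sites were shared, or 92.4% (88.4 to 95.2%), and 93.5% of 1926 other sites. Without it and away from gaps, 147 of 460 far sites were shared, or 32% (27.9 to 36.4%), and 45.2% (43.3 to 47.2%) of 2396 other sites. As overlap chose the members, these values are a description. The 402 far basal sites that were not shared were narrow, with a median of 149 bp against 399 bp for the members, and 18 of them held the consensus (4.48%), 0 without a mismatch. Of the 315 far increased sites that were not shared 13 held it (4.13%).

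In the 147 members away from gaps without the consensus, its left and right parts often stood at another distance. Both parts, each allowed 1 mismatch and separated by up to 20 bases other than 2, were found in 78, or 53.1% (45.0 to 60.9%). Their windows 10 kb away held them in 24 of 288 cases, or 8.33% (5.66 to 12.1%), and the other shared sites without the consensus in 47.0% (44 to 49.9%). Near large gaps 8 of 147 members had them (5.44%). The most frequent distances were 8 bases, in 26 members or 17.7% (12.4 to 24.7%), and 0 bases, in 23 or 15.6%. Windows had these distances in 4 and 0 of 288 cases, and the 1116 other shared sites without the consensus in 109 (9.77%) and 85 (7.62%). Next were 7 bases with 10 members, and 9, 13 and 14 bases with 8 members each. A member can be counted at more than 1 distance, and most of those with 13 or 14 bases were also counted at 0 bases.

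**Figure D5:**
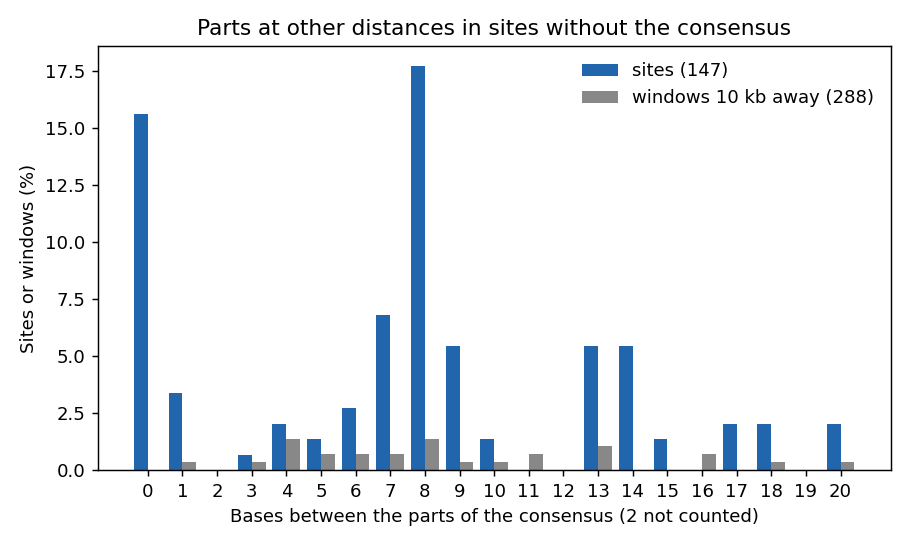
Percentage of the 147 members away from large gaps without the consensus, and of their 288 windows 10 kb away, that hold both parts of it at the given number of bases from each other (horizontal axis, bases; 2 is the consensus itself and is not counted). Distances of 8 and 0 bases stand out in the members with 17.7% and 15.6%, against 1.39% and 0% of windows.

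Parts 8 bases apart had varying bases between them. Of all shared sites without the consensus 9.57% had them, of the members without it 26 of 294 (8.84%), all away from gaps. The median basal width of these 26 was 474 bp and that of their increased partners 549 bp, and in 19 the middle of the element lay within 50 bp of the midpoint. Of the widest, 4 are printed to show both parts and the bases between them. Capitals mark the parts.
NEDD1 and TMPO, chr12:98690634-98690660, minus strand: ggagCTGTCCacagtcctAGTGCTGac
MDGA2 and RPS29, chr14:49770843-49770869, plus strand: tgagCTGTCCtccactgtGGTGCTGaa
SHH and RNF32, chr7:156178935-156178961, minus strand: ggaaCTGTCCaccacggcTGTGCTGaa
KIF4B and SGCD, chr5:155106029-155106055, plus strand: gttgCTGTCCagcttccaGGTGCTGaa
No 2 of the 24 such elements compared had the same bases from the first to the last part, but several were alike. A pair of members between NEDD1 and TMPO had elements that differed at 1 base, the element between SHH and RNF32 differed at 1 base from that of a member between MAN1A1 and TBC1D32, and 9 other pairs differed at 3 bases. SHH encodes a secreted signal of embryonic patterning, and MDGA2 a protein that regulates synapse adhesion. Neither was the nearer gene: the site after MDGA2 lay 1626 kb from it and 267 kb from RPS29, and that after SHH was nearer to RNF32. The search used neither the bases before nor those after the element, and in 14 of the 24 elements compared it was followed by AA, or 58.3% (38.8 to 75.5%), as in 46.4% of the 220 consensus matches.

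The parts with no base between them, in contrast, lay in nearly all cases in the same 13 bases. Of the 23 members with this distance, 21 had them. The 19 bases printed with the neighbours were identical in 13 of them. The widest member with the run and the widest with the most frequent form are shown.
CDH9 and CDH6, chr5:29964248-29964266, minus strand: agagCTGTCCAGTGCTGaa
GBA3 and PPARGC1A, chr4:23518531-23518549, plus strand: agatCTGTCCAGTGCTGaa
The likeness extended beyond the parts. Over 86 columns within 44 bases of the run, aligned without gaps, the commonest base was present in a mean of 69.8% of the 21 members, against 38.8% in the same columns 10 kb away. In 22 of these columns at least 80% of the members had the same base, and in 0 of those 10 kb away. The 21 members are therefore not counted as independent examples of this distance. Likeness was not tested member by member, and 2 of them, between PLD5 and CEP170 and between PTPRT and SRSF6, had no repeated word.

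Most copies of the 19 bases in the genome were in a basal site. The 19 bases occur 73 times in the chromosomes of hg19, and 61 copies were in a basal site (83.6%) and 52 in an increased site. The run was taken from the members, 13 of which carry it, so its share far from genes was in large part set by that choice and is a description. Far from genes there are 18 copies, of which 15 were in a basal site, or 83.3% (60.8 to 94.2%), and 12 in an increased site, or 66.7% (43.7 to 83.7%). Elsewhere 46 of 55 copies were in a basal site, or 83.6% (71.7 to 91.1%). The 13 bases alone, without the neighbours, occur 446 times, and 107 copies were in a basal site (24.0%), 26 of 84 far from genes. The basal widths of the 23 members with adjacent parts ran from 149 to 749 bp with a median of 349 bp, and the middle of the run was within 50 bp of the site midpoint in 22. The sequences were examined after the count of this distance had been seen.

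The consensus of SF-1 itself was found in few members. CAAGGTCA, CAAGGACA or CAAGGCCA, without mismatch on either strand, was found in 50 members, or 9.73% (7.46 to 12.6%), against 6.41% (5.05 to 8.10%) of their windows and 15.1% of all shared sites. CAAGGACA can lie within the NRSF/REST consensus where the free bases are TT. With matches that overlap the NRSF/REST match left out, 32 members held it, or 6.23%, a share inside the interval of the windows. None of the 50 was near a large gap. Away from gaps they were 13.8% (10.6 to 17.7%) of the members, against 8.41% of windows and 16% of the other shared sites. With overlapping matches left out, the share of members away from gaps was 8.82%. CAAGGTCA alone was present in 20 members (3.89%), against 4.11% of all shared sites.

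The genes nearest to the members were sorted by the start of their symbols into families that NRSF/REST is known to repress or that fill gene-poor regions. Genes of cell adhesion and synapse were nearest to 21 members, or 4.09% (2.69 to 6.16%), and to 8 of the 765 shared sites outside genes within 100 kb, or 1.05% (0.531 to 2.05%). These 21 members lay beside 13 genes, and 11 held the consensus, against 42.8% of all members. TENM2, a teneurin of synapses, had 3 members at 134 to 813 kb, all with the consensus, and CDH6, a cadherin, had 3 at 384 to 1230 kb, 2 with it. NLGN4X, which encodes a postsynaptic neuroligin, had 2 members at 208 and 498 kb, both with it. No member nearest to CDH2, CDH10, LRFN5, PCDH7, SYT10 or TENM3 held it. CDH8 and ROBO1 each had 1 of 2 members with it, and the single members nearest to FLRT2 and NCAM2 held it. The intervals of the shares do not overlap. Members and comparison sites were set apart by their distance from genes, and the part in this difference of the gene-free stretches beside such genes was not tested.

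Transcription factor genes were nearest to 16 members (3.11%, 1.92 to 5%) and to 17 of the 765 sites (2.22%, 1.39 to 3.53%). These 16 members lay beside 13 genes, all away from large gaps. Of the 16, 13 held the consensus, against 59.5% (54.4 to 64.4%) of all members away from gaps, a difference not tested. Both members beside POU3F2, a POU factor of neural precursors, held it, at 177 and 364 kb, and so did both beside FOXA2, a forkhead factor of endoderm, at 182 and 220 kb. Ion channel genes were nearest to 10 members (1.95%, 1.06 to 3.54%) and to 25 of the 765 sites (3.27%). They included the glutamate receptor genes GRIA1 (213 kb), GRIK2 (317 and 1103 kb) and GRIK3 (109 kb), and the potassium channel genes KCND2 (801 and 857 kb) and KCND3 (144 and 183 kb). Genes of the ZNF family were nearest to 30 members (5.84%) against 2.22% of the 765 sites, and 29 of the 30 lay near a large gap, 17 of them beside ZNF33B. Olfactory receptor genes were nearest to 5 members (0.973%, 0.416 to 2.26%), all near a gap, and to 17 of the 765 sites (2.22%, 1.39 to 3.53%). No expression was measured with these libraries, so the lists say nothing of whether these genes respond.

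Other annotation near the members was sparse. The nearest lncRNA gene was at a median of 99 kb, within 10 kb for 47 members and beyond 100 kb for 256. The midpoints of 10 members lay in genes of another type, such as the pseudogenes HNRNPKP3 on chromosome 11, where the site held the consensus with 1 mismatch, and PCDH8P1, derived from a protocadherin gene, on chromosome 13, also with 1 mismatch. No word of any member matched the mitochondrial sequence.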

How the data were processed

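NRSF/REST ChIP-seq libraries of H295R/TR SF-1 cells, 1 per dosage, were analysed as deposited lists; 2 input DNA libraries were not analysed here. Alignment to hg19 was done by the authors with ELAND. The submitters' processing notes name CASAVA 1.6. The methods give CisGenome settings for SF-1 sites only, and the NRSF/REST lists carry a header of that format. The deposited score is 1000 for every site and another column numbers the sites in order. Repeated sequence, depth and the caller's threshold can change which sites are listed.

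Computed here, with Python 3.11.15, numpy 2.4.6, numba 0.67.0, pysam 0.24.0 and matplotlib 3.10.9, were overlaps, distances to 20163 protein-coding and 18934 lncRNA genes of GENCODE release 44 mapped to hg19 (232 lncRNA genes carry older type names), consensus matches, counts of 32-base words and genome copies. Windows with over 10% of N were left out. Intervals are 95% Wilson intervals. No test was made between dosages or over sites. The steps were tested on simulated data.

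The members, families and limits were chosen with earlier results of these data known. Named sites followed a rule: the 10 widest, the 5 farthest, the 10 widest without mismatch, the 5 widest without the consensus, 3 on either side of the distance limit and the intervals with the most members. Family names were matched by symbol prefix, leaving out other genes with the same letters. Alternatives were other overlaps, distances, annotations, mismatches and sequence sets.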

Additional observations from a re-analysis of the deposited data

How the results depend on the processing

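No paired analysis was possible because each dosage has 1 library and no result comes from a test. Of the alternatives, the current lncRNA type and the settings by gap were added once values were known. The number of members, 514, ran from 357 to 703 except with the widest 50% of each list, which left 297. Their median basal width stayed within the 50-bp step of 399 bp, except with the widest 50%, where it was 499 bp by construction. The share of far basal sites that were shared, 56.1%, was 85.6% with the widest 50%, 62.2% counted from the increased list and 52.3% without sites within 2 Mb of a large gap. The share of members with the consensus, 42.8%, moved most. It was 9.53% with no mismatch, 28.6% with at most 1 and 51.9% with at most 3, and 37.9% in the central 200 bases. Beyond 200 kb from genes it was 37.8%, with no condition on lncRNA genes 48.9%, and with the widest 50% 56.9%. It was 49.3% without mostly repeated sites, and 56.8%, 59.5% and 60.1% without sites within 1, 2 and 5 Mb of a large gap. The causes of these changes were not tested, apart from those set by construction. The share of members that are soft-masked repeat was not run, because the reference used here carries no such mask. With no read counts, depth limits are unknown.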
